A study of Homo sapiens with 6 samples.

Results

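The extracellular matrix and its receptors were examined at the level of chromatin, in the genes of the collagens, the laminins and the integrins. The 82 protein-coding genes of these families were taken by their GENCODE symbols, out of 20007 protein-coding genes. Peaks of open chromatin from 6 ATAC-seq libraries were merged into 105569 regions, and a region was given to a gene when its highest summit lay in the gene body or up to 10 kb upstream. By this rule 687 regions belonged to 81 of the genes, 404 to 44 collagen genes, 105 to 12 laminin genes and 178 to 26 integrin genes, while COL4A5 had none. The libraries came from RH30 cells, an established line of fusion-positive (alveolar) rhabdomyosarcoma, a muscle-lineage tumor. All cells carried Cas9. Vector cells received a non-targeting scramble sgRNA (labelled "sgRNA scramble"), and MyoD-deleted cells received sgRNAs against MyoD, the transcription factor that drives the skeletal muscle program. Each group had 3 libraries. The labels call them biological replicates of a single cell line and do not say whether they came from separate transductions, clones or cultures, so the tests measure the spread between these libraries. The labels name the line RH30, the study also uses RH30 cells carrying the IκBα super repressor, and which of them gave the libraries was not settled here.

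Collagens are trimers of alpha chains. Fibrillar collagens bear the tension of connective tissue, collagen IV forms the network of basement membranes, collagen VI forms beaded filaments around muscle fibers, and fibril-associated collagens decorate the fibrils. Laminins are cross-shaped trimers of an alpha, a beta and a gamma chain that organize the basement membrane, and the alpha 2 chain is the main one around adult muscle fibers. Integrins are receptors made of an alpha and a beta chain that bind laminins, collagens or the RGD motif of fibronectin and tie the matrix to the cytoskeleton. In muscle, the laminin receptor made of ITGA7 and ITGB1 anchors the fiber to its basement membrane. Open chromatin marks promoters and enhancers and does not measure the RNA or protein.

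Openness was compared in 3 ways. A region was called gained when all 3 MyoD-deleted libraries and no vector library had a peak there, and lost in the reverse case. For the 47885 regions called in all 6 libraries, the fold enrichment of the summit over its local background was ranked within each library and compared with limma. The height of the summit, as fragments over the smallest background of the library, was also compared with limma on a log2 scale. Heights are given relative to the library's median shared region, which is 1. A height change is a difference of log2 values, MyoD-deleted minus vector, ± its SE, and a change is called at an adjusted p under 0.05 (Benjamini-Hochberg over all 47885 regions). More open means gained, or higher by rank or height, and less open the reverse. A library without a peak fell below the peak caller's threshold there, which does not show closed chromatin. MyoD-deleted libraries held 73745 to 80608 peaks and vector libraries 63140 to 74121. Read totals are unknown; the smallest background, which moves with depth, was 2.225 to 3.41 fragments in the vector and 2.268 to 2.346 in the MyoD-deleted libraries. Before each library was centred on its median shared region, the median height change over all shared regions was 0.227 (log2). Changes are reported after that centring, which left a median change of 0.04. Of 10 myogenic markers, 7 had a region within 1 kb of the 5′ end in all 6 libraries, and MYMK, NCAM1 and RYR1 had none. Regions at the 5′ ends of leukocyte, endothelial and epithelial markers were called in all 6 libraries for 0 of 15 genes. That of CD14 was called in 2 vector and 3 MyoD-deleted libraries, KRT18 in 2 MyoD-deleted libraries and VWF in 1, and the others in none. The region at the 5′ end of MYOD1 itself was called in every library, at a highest relative height of 7.67 in vector and 5.65 in MyoD-deleted cells, and peak lists cannot show the edits.

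The sequences below show the highest summit with 50 bases on either side, from the plus strand of hg38. They show the regions with the largest rise and the largest fall in height at these genes. Gained and lost regions of collagen and laminin genes follow, chosen to show the motifs counted further on. No gained or lost integrin region is printed. In the same window those gained at ITGB6, ITGB8 and ITGA2 held 0 of the motifs, and the one lost at ITGA9 held 1 CAGGTG. Capitals mark CAGCTG and CAGGTG (the E boxes bound by MyoD and related factors, the latter also as CACCTG on the other strand), TGACTCA (the AP-1 site, also as TGAGTCA) and GGAATG (the TEAD site, also as CATTCC). In the sequences printed here no letter belongs to more than one motif.
ITGA3 intron 1, higher, chr17:50062510-50062610: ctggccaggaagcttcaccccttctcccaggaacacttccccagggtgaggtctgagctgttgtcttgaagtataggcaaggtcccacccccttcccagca
COL4A2 intron 4, lower, chr13:110377229-110377329: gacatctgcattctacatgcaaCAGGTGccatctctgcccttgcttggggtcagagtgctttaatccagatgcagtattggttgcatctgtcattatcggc
LAMC1 intron 1, gained, chr1:183094157-183094257: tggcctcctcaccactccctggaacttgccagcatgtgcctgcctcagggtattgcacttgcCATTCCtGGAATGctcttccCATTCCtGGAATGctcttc
LAMA3 intron 23, gained, chr18:23828627-23828727: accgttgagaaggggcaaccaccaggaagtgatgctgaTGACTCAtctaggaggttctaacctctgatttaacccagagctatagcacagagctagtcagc
COL8A1 intron 2, gained, chr3:99748161-99748261: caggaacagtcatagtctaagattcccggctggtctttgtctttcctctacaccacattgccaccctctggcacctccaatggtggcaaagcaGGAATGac
LAMB4 intron 14, lost, chr7:108087125-108087225: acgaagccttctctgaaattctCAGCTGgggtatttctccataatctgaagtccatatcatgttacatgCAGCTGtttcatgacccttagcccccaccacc
COL21A1 intron 24, lost, chr6:56063043-56063143: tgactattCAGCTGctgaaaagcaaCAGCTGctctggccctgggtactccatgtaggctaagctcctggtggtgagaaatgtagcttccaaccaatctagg
COL18A1 intron 2, lost, chr21:45466980-45467080: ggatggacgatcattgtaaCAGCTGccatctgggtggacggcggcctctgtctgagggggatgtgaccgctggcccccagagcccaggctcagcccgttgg
The gained LAMC1 region holds 4 copies of the TEAD letters, and the lost regions of LAMB4 and COL21A1 hold 2 CAGCTG E boxes each. The ITGA3 region with the largest rise holds none of the motifs in this window, and the COL4A2 region with the largest fall holds 1 E box. These examples were chosen after their values were seen, and the shares over all regions are given with the motif counts.

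Regions at collagen, laminin and integrin genes changed in both directions. At integrin genes most of the called changes were toward more open chromatin. In all, 35 of 687 regions (5.09%) were gained, against 4.56% of all regions, and 12 (1.75%) were lost, against 1.78%. By rank, 14 of the 319 regions called in all 6 libraries were higher (4.39%, against 4.12% of all) and 13 were lower (4.08%, against 4.67%). By height, 46 were higher (14.4%, against 11.4%) and 53 were lower (16.6%, against 12.8%). Taken as one set, the 82 genes therefore stood near the background in each count. Of the 99 member regions called by height, 23 were also called by rank in the same direction. The local background around the summit moved with the height. Its median log2 change was 0.45 at the higher regions and -0.44 at the lower ones, against 0.01 over all members called in all 6 libraries. The families differed from each other in their counts. Integrin genes had 14 gained regions (7.87%) and 1 lost (0.562%), with 18 of 83 regions higher in height (21.7%) and 6 lower (7.23%). Collagen genes had 18 gained (4.46%) and 5 lost (1.24%), with 24 of 186 regions higher (12.9%) and 39 lower (21.0%). Laminin genes had more calls toward less open chromatin, with 3 gained (2.86%) and 6 lost (5.71%), and 4 of 50 regions were higher and 8 lower. These differences between families were not tested.

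**Figure D1:**
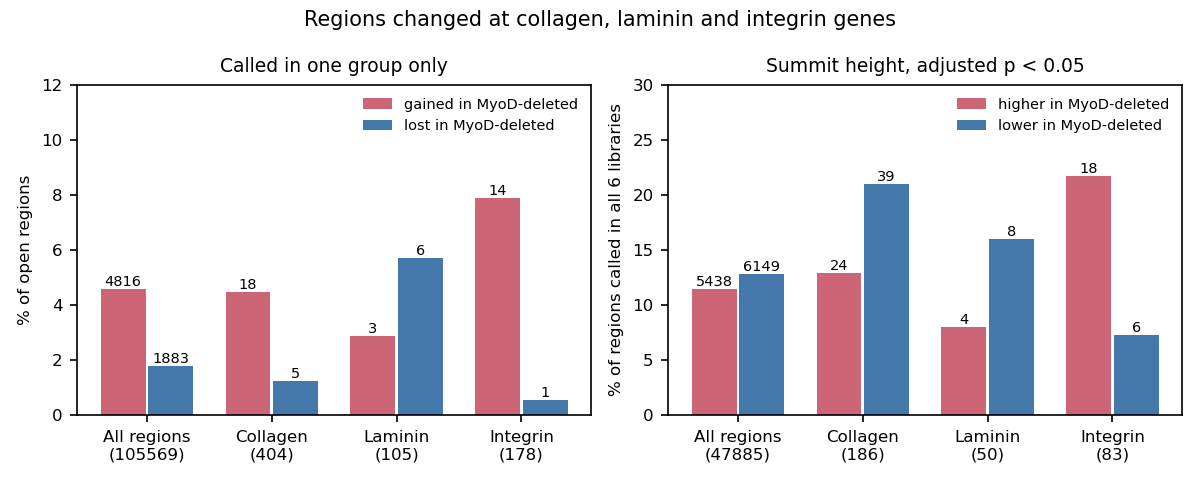
Shares of regions changed in MyoD-deleted cells, for all regions and for collagen, laminin and integrin genes. The left panel gives the percentage of all regions that were gained or lost, and the right panel the percentage of regions called in all 6 libraries whose summit height passed the limma test; numbers above the bars are regions and numbers in brackets are the totals. At integrin genes the bars for gained and higher regions (14 and 18) exceed those for lost and lower regions (1 and 6).

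The number of peaks per library moved with these call patterns. When each library was cut to its 63140 strongest peaks, 21 of 579 member regions were gained (against 3.26% of all regions) and 28 lost (against 3.71%). The counts were 12 and 18 at collagen genes, 2 and 5 at laminin genes and 7 and 5 at integrin genes. Lost regions then outnumbered gained ones over all regions as well as at collagen genes, so this turn was not particular to them. At integrin genes the counts came close to each other. Height calls at integrin genes stayed at 18 higher and 6 lower under that choice. Without the centring, 87 member regions were higher (background 24.7%) and 35 lower (background 8.03%), with 28 and 4 at integrin genes, 48 and 27 at collagen genes and 11 and 4 at laminin genes. The surplus of lower regions at collagen and laminin genes thus turned with the centring. Leaving out the centring raises every change by the same amount and favours higher calls. It therefore could not turn the surplus of higher regions at integrin genes and does not test it. Single libraries also moved these totals. Without MyoD-deleted replicate 2, 25 member regions were higher in height (against 7.33% of all regions). Without vector replicate 1, 53 were gained (against 8.38%). Marker genes of epithelium, a cell type with its own laminins and integrins, had 3 gained and 0 lost of 21 regions, and those of endothelium 3 and 0 of 41. Of the epithelial markers none had a region at its 5′ end in all 6 libraries, and the part of other cell types or states in these counts was not tested.

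Among the fibrillar collagens, changes ran both ways. Of 102 regions at 11 genes, 6 were gained and 1 was lost, and by height 9 of 46 were higher and 8 lower. COL1A1 and COL1A2 encode the chains of collagen I, and COL3A1 that of collagen III. A highly open region lay in intron 1 of COL1A1, 1.2 kb from the 5′ end. It stood at 8.48, 8.64 and 9.29 in vector replicates 1 to 3 and at 10.7, 11.0 and 10.9 in MyoD-deleted replicates 1 to 3, with no overlap of the groups. The height change was 0.30 ± 0.08 (adjusted p = 0.0114). By rank the region went the other way without passing the test. It moved from the 96.1 ± 0.329 to the 93.0 ± 1.13 percentile of fold enrichment (SD, n = 3 libraries each; limma adjusted p = 0.199). COL1A2 and COL3A1 had low heights at their 5′ ends: the COL1A2 region stood at 0.247, 0.25 and 0.288 in vector cells and had a peak in only 2 MyoD-deleted libraries, and the COL3A1 region was called in 1 vector library. Neither gene had a changed region.

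COL5A1 and COL5A2, whose collagen V nucleates collagen I fibrils, had 7 and 4 changed regions. At COL5A1, 3 were more open and 4 less open. Its promoter region, 0.2 kb upstream, rose in height from 4.84, 5.09 and 5.82 to 6.71, 6.56 and 6.15 (change 0.31 ± 0.10, adjusted p = 0.026; rank adjusted p = 0.736). In the same gene, a region in intron 17 fell from 1.05, 1.52 and 1.41 to 0.621, 0.485 and 0.5 (change -1.30 ± 0.18, adjusted p = 6.56e-05). A region in coding exon 41 ranked lower, at the 23.4 ± 6.60 percentile of shared regions in vector cells and the 1.63 ± 0.326 percentile in MyoD-deleted cells (SD, n = 3 libraries each; limma adjusted p = 0.00497). The promoter of COL5A1 thus rose while 4 regions of its gene body fell and 1, in intron 46, rose. At COL5A2, 2 regions were higher, 1 was gained and 1, in intron 12, was lost, and the intron 1 region rose by 1.36 ± 0.30 (adjusted p = 0.00263). COL27A1, a collagen of cartilage matrix, had 4 more open and 2 less open regions of 22, the gained ones in introns 12 and 14. COL24A1 had 2 regions higher and 2 lower, the strongest being intron 10, from 0.852, 0.964 and 0.803 down to 0.345, 0.318 and 0.515 (change -1.18 ± 0.21, adjusted p = 0.000511; rank adjusted p = 0.0116).

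Most called changes at collagen IV genes were falls within the gene body. The 6 chains had 43 regions, of which 0 were gained and 1 was lost, and 7 of the 19 regions called in all 6 libraries were lower in height (36.8%, against 12.8% of all regions) while 1 was higher (against 11.4%). COL4A2, a chain of the common basement membrane network, held 6 of the 7. Its region in intron 4, 70.0 kb from the 5′ end, stood at 1.14, 1.41 and 1.0 in vector cells and at 0.31, 0.242 and 0.368 in MyoD-deleted cells. This was the largest fall at any of these genes, -1.95 ± 0.21 (adjusted p = 4.6e-06; rank adjusted p = 0.0121), and the groups did not overlap. A stronger region in the same intron, at 105.2 kb, fell from 3.73, 3.91 and 3.85 to 2.34, 2.38 and 2.25 (change -0.72 ± 0.10, adjusted p = 5.95e-05). A single region of COL4A2, in intron 3, rose, from 0.42, 0.411 and 0.394 to 0.603, 0.818 and 0.559 (change 0.67 ± 0.20, adjusted p = 0.0215; rank adjusted p = 0.0113). Its 5′ end, shared head to head with COL4A1, held 1.38, 1.2 and 1.62 against 1.33, 1.44 and 1.65 and did not pass the test (change 0.08 ± 0.15, adjusted p = 0.765). At COL4A1, 1 of the 6 regions called in all 6 libraries fell, in intron 1 (change -0.46 ± 0.14, adjusted p = 0.0198). The lost region lay in intron 4 of COL4A4, at 0.543, 0.518 and 0.485 in vector cells. Without the centring 2 of the collagen IV regions were lower, and without vector replicate 2 also 2, so the count of lower regions rests on both choices.

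Collagen VI genes had few regions, 15 at 5 genes. At the promoters of COL6A1 and COL6A2, whose chains form the collagen VI of the muscle fiber surface, heights were 1.33, 1.86 and 1.71 against 1.59, 1.42 and 1.29, and 0.864, 0.875 and 0.985 against 1.03, 0.833 and 1.12. Neither passed the test (changes -0.18 ± 0.15 and 0.12 ± 0.17, adjusted p = 0.431 and 0.648). COL6A3 had a single region, called in 1 library of each group. At COL6A6, a region in intron 18 rose by 0.74 ± 0.23 (adjusted p = 0.0227; rank adjusted p = 0.0169), where the highest vector library, at 0.642, lay just under the lowest MyoD-deleted library, at 0.672, and 1 region in intron 35 was lost.

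COL19A1 carried the most regions of any member, 41, and the most changes. It encodes a fibril-associated collagen expressed in developing muscle. By height, 9 of its 23 regions called in all 6 libraries were lower (39.1%, against 12.8% of all regions). Another 1 was higher (4.35%, against 11.4%), 1 region was gained and 1 ranked higher. Without centring 7 were lower and 4 higher in height. One of the most open of the 23 regions, in intron 4, fell from 6.51, 7.77 and 7.45 to 4.98, 4.23 and 5.34 (change -0.58 ± 0.10, adjusted p = 0.00055). The largest fall, in intron 36, was from 1.0, 0.929 and 0.955 to 0.379, 0.424 and 0.397 (change -1.26 ± 0.18, adjusted p = 6.35e-05). The regions that fell lay between 28.3 and 297.8 kb from the 5′ end. Interleaved with them, a region in intron 7 rose by 0.87 ± 0.22 (adjusted p = 0.00718), and the gained region lay nearby, in coding exon 8. The other fibril-associated collagens had fewer changes. COL16A1 had 3 changed regions, all more open: 1 gained 8.8 kb upstream (0.759, 0.97 and 0.779 in MyoD-deleted cells), 1 in intron 22 that rose by 0.90 ± 0.17 (adjusted p = 0.000664), and 1 gained in exon 63. COL14A1 had 2 regions lower and 1 gained, and its intron 18 region changed by -0.91 ± 0.22 (adjusted p = 0.0053). COL21A1 had 1 region lower and 1 lost. COL12A1, a collagen of tendon and muscle connective tissue, rose at its promoter from 1.95, 1.93 and 2.08 to 2.48, 2.65 and 2.56 (change 0.37 ± 0.11, adjusted p = 0.0203; rank adjusted p = 0.197).

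**Figure D2:**
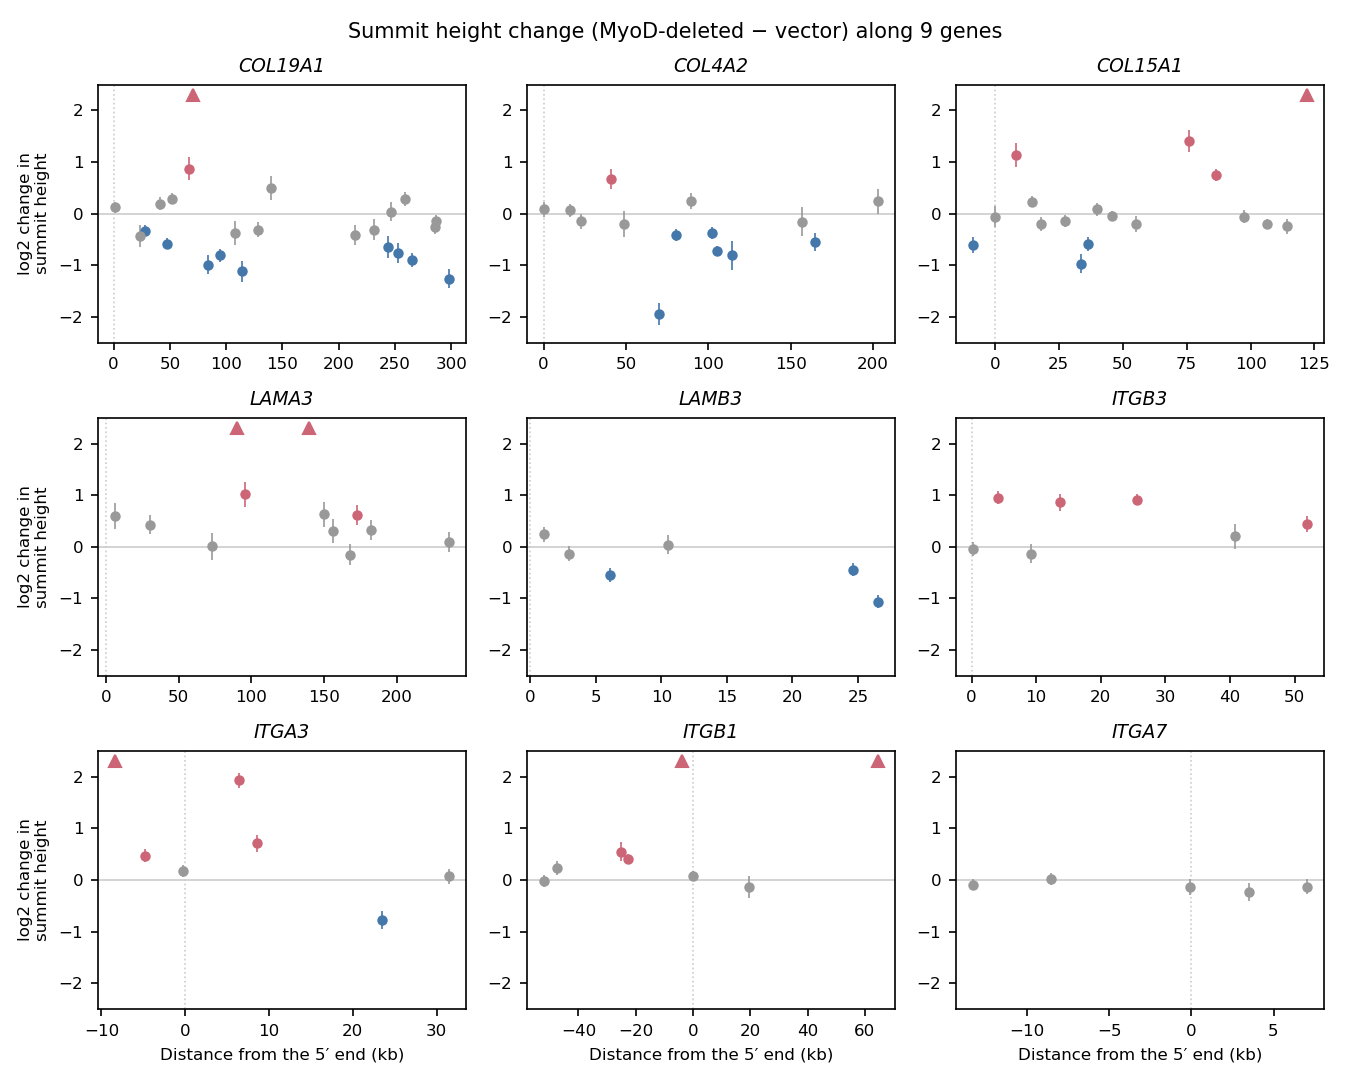
Change in summit height along 9 genes, plotted against the distance of the summit from the 5′ end in kb. Circles are regions called in all 6 libraries, with the SE as bars, red where higher, blue where lower and grey where the test was not passed; triangles at the top are gained regions, which have no height change; the 9 genes had no lost region. In COL19A1 9 regions are lower and in COL4A2 6, ITGB3 has 4 higher, and at ITGA7 none of 5 passed the test.

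The network-forming, anchoring and other collagens had 9 more open (16.1%, against 10.1% of all regions) and 3 less open regions (5.36%, against 7.85%) of 56. COL26A1, one of the others, held 20 of the 56 and all 3 less open ones. COL8A2 and COL8A1 encode the chains of collagen VIII, a short-chain collagen of vessel walls and Descemet's membrane. At COL8A2 2 regions were higher and 1 was gained, and the one 8.5 kb upstream rose from 0.556, 0.411 and 0.485 to 1.07, 1.03 and 1.01 (change 1.11 ± 0.18, adjusted p = 0.000213). At COL8A1 the region 1.1 kb upstream rose from 0.358, 0.304 and 0.273 to 0.603, 0.606 and 0.735 (change 1.06 ± 0.21, adjusted p = 0.00104), and 1 region in intron 2 was gained. COL28A1 had 1 higher and 1 gained region, and COL7A1, the collagen of the anchoring fibrils of skin, gained 1 region 3.3 kb upstream at 0.81, 0.894 and 0.912. COL26A1 held both kinds. A region in its intron 3, with MYL10 as the nearest 5′ end, rose from 0.407, 0.429 and 0.439 to 1.22, 1.26 and 1.06 (change 1.47 ± 0.17, adjusted p = 1.19e-05; rank adjusted p = 0.00299). A region in intron 1 of the same gene fell from 2.21, 2.8 and 2.65 to 1.17, 1.09 and 1.22 (change -1.13 ± 0.13, adjusted p = 9.59e-06), and 2 more in that intron were also lower.

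Among the multiplexins, which are collagens of basement membrane zones and the sources of endostatin-like fragments, COL15A1 had 4 more open and 4 less open regions of 19. In its intron 11 a region rose from 1.48, 0.696 and 0.758 to 2.57, 2.61 and 2.21 (change 1.41 ± 0.21, adjusted p = 9.62e-05). Another, in intron 2, rose from 0.333, 0.393 and 0.273 to 0.776, 0.909 and 0.529 (change 1.13 ± 0.23, adjusted p = 0.00156; rank adjusted p = 0.0112). In the same intron a neighbor 33.8 kb from the 5′ end changed by -0.97 ± 0.19 (adjusted p = 0.00108). COL18A1 had 2 regions lower and 1 lost, all in intron 2, and 1 gained in intron 3. Its promoter held 1.64, 1.73 and 2.33 against 1.64, 1.33 and 1.32, and the change of -0.40 ± 0.15 did not pass (adjusted p = 0.0627). The transmembrane collagen COL23A1 had the largest fall in gene median of any member, since both of its shared regions were lower, one of them from 1.37, 1.55 and 1.42 to 0.655, 0.545 and 0.779 (change -1.15 ± 0.17, adjusted p = 8.26e-05).

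At the laminin genes, the chains of muscle and of epithelium differed in their calls. LAMA2, the alpha chain of muscle basement membrane, had 1 region lower and 1 lost of 13. The region in intron 4 stood at 0.926, 1.21 and 1.08 in vector cells and at 0.362, 0.394 and 0.456 in MyoD-deleted cells, a fall of -1.41 ± 0.19 (adjusted p = 3.69e-05), and it was the only laminin region called by rank (adjusted p = 0.00614). Closer to the start, in intron 3, the lost region had stood at 0.358, 0.393 and 0.258. Its promoter was level at 2.3, 2.84 and 2.79 against 2.33, 2.77 and 2.78 (change -0.01 ± 0.12, adjusted p = 0.98). LAMA3, an alpha chain of epithelial laminin, had 4 regions more open and 0 less open of 21. A region in its intron 12 rose from 0.556, 0.286 and 0.515 to 1.0, 0.955 and 0.721 (change 1.02 ± 0.24, adjusted p = 0.00414). The gained ones stood at 0.552, 0.424 and 0.338 in intron 11 and at 0.31, 0.242 and 0.426 in intron 23. LAMA5, a widely expressed alpha chain, had a strong region 1.8 kb upstream that fell from 6.28, 7.8 and 8.09 to 4.83, 4.77 and 5.21 (change -0.58 ± 0.10, adjusted p = 0.000524; rank adjusted p = 0.397). A further region of LAMA5, in intron 2, changed by -0.73 ± 0.13 (adjusted p = 0.000394), 1 was lost, and 1, 9.3 kb upstream, rose by 0.40 ± 0.13 (adjusted p = 0.0346). LAMA4 had no changed region.

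The beta chains had 7 less open regions (33.3%, against 7.85% of all regions) and 1 more open of 21. By height 4 of their regions were lower and 1 was higher, and without centring 1 was lower and 3 were higher. LAMB3, the partner of LAMA3 in epithelial laminin, had 3 lower regions and 0 higher, led by coding exon 14, from 2.26, 1.88 and 2.08 to 1.02, 0.939 and 1.01 (change -1.06 ± 0.13, adjusted p = 2.24e-05). After centring, the changed regions of LAMA3 and LAMB3, whose products pair in a single trimer, thus lay in opposite directions. Without centring LAMB3 had 1 region lower and 1 higher, and LAMA3 had 0 lower and 6 higher. The side of LAMB3 therefore rested on the centring, and 0 of its regions were called by rank. LAMB1, found in most laminins, had 1 region lower in intron 13 (2.99, 3.0 and 2.52 against 1.83, 2.29 and 1.71) and 1 lost. LAMB4 had 2 lost regions, at 0.259, 0.339 and 0.303 and at 0.333, 0.232 and 0.212 in vector cells, and 1 higher. The single region of LAMB2, a chain of the muscle synapse, did not pass the test (change -0.16 ± 0.12, adjusted p = 0.391). Of the gamma chains, LAMC1 had 1 region lower, in intron 1 (1.67, 1.64 and 1.56 against 1.09, 1.11 and 1.31; adjusted p = 0.0153), and 1 gained in that intron, shown above with its TEAD letters. LAMC3 had 1 lost region.

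The integrins that bind laminin held the largest rise. ITGA3, a receptor chain of epithelia and of many carcinoma cells, had 3 higher regions, 1 lower and 1 gained of 8. Its intron 1 region, 6.5 kb from the 5′ end, stood at 1.43, 1.14 and 1.26 in vector cells and at 4.03, 5.97 and 4.71 in MyoD-deleted cells. The change was 1.93 ± 0.14 (adjusted p = 1.57e-07), and the region moved from the 6.13 ± 0.400 to the 42.3 ± 6.52 percentile of fold enrichment (SD, n = 3 libraries each; limma adjusted p = 0.0043). The background around it also rose, from 7.29 ± 0.785 to 15.1 ± 2.11 times the library's smallest background. Another ITGA3 region, 8.4 kb upstream, was gained at 0.793, 1.24 and 0.588, and the intron 21 region changed by -0.77 ± 0.17 (adjusted p = 0.00294). ITGA6, which pairs with ITGB1 or ITGB4, had 2 gained regions, weak ones in introns 1 and 11. ITGA7, the laminin receptor chain of muscle fibers, had 5 regions, all called in all 6 libraries, with changes of -0.23 to 0.02 and adjusted p from 0.356 to 0.937. Its promoter stood at 1.36, 1.7 and 2.03 against 1.55, 1.45 and 1.56. No change of ITGA7 was detectable at SEs of 0.10 to 0.17.

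At collagen-binding alpha chains 4 of 35 regions were more open (11.4%, against 10.1% of all regions) and 0 less open (against 7.85%). At RGD-binding alpha chains 2 of 18 were more open (11.1%) and 0 less open. The shares of more open regions were thus near the background. ITGA1, ITGA2, ITGA10 and ITGA11 bind collagen, and each had 1 more open region and 0 less open. ITGA2 was gained in intron 2 at 0.362, 0.379 and 0.338, and ITGA10 rose 8.9 kb upstream from 2.0, 1.89 and 1.8 to 2.45, 2.74 and 2.46 (change 0.42 ± 0.11, adjusted p = 0.011). ITGA5, the fibronectin receptor chain, had a region in intron 2 that rose from 0.617, 0.196 and 0.227 to 0.862, 1.45 and 0.691 (change 1.66 ± 0.34, adjusted p = 0.0017). The ITGA5 vector libraries were spread widely there, with replicate 1 highest, and all lay below the MyoD-deleted ones. A further ITGA5 region was gained 9.5 kb upstream, near the limit of the rule, at 0.414, 0.47 and 0.412. The ITGA5 promoter held 0.852, 0.839 and 1.29 against 1.43, 1.29 and 1.28 and missed the test after centring (0.45 ± 0.17, adjusted p = 0.0653). ITGAV, the alpha chain of several RGD receptors, was level at its promoter (-0.01 ± 0.09, adjusted p = 0.969). ITGA4 and ITGA9, a vascular cell adhesion receptor chain and its relative, had 1 changed region, lost in intron 23 of ITGA9, where CTDSPL is the nearest 5′ end.

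The beta chains held 16 more open (22.9%, against 10.1% of all regions) and 6 less open regions (8.57%, against 7.85%) of 70. ITGB1 is the common partner of the alpha chains above. Its changes were 2 regions higher and 2 gained, with 0 lower, all away from the promoter, which stood at 5.14, 5.16 and 5.76 against 5.5, 5.56 and 5.84 (change 0.08 ± 0.09, adjusted p = 0.611). A gained region 3.9 kb upstream was the most open gained region of all members, at 1.02, 1.27 and 1.29. ITGB3, the beta chain of the platelet and vitronectin receptors, had 4 higher regions of the 7 called in all 6 libraries, among them those of introns 1 and 2 from 1.28, 1.21 and 1.24 to 2.07, 2.74 and 2.49 (change 0.95 ± 0.13, adjusted p = 5.19e-05; rank adjusted p = 0.0421) and from 2.07, 2.21 and 2.23 to 3.83, 3.97 and 4.47 (change 0.91 ± 0.11, adjusted p = 1.06e-05). Another region of ITGB3 intron 1 ranked lower (adjusted p = 0.0309) with little change in height (-0.13 ± 0.18, adjusted p = 0.667). The background around it was 4.13 ± 0.313 times the library's smallest in vector cells and 5.78 ± 0.917 times in MyoD-deleted cells (SD, n = 3 libraries each). ITGB3 overlaps a readthrough gene, ENSG00000259753, and the files cannot assign its regions to either. ITGB5 had 2 regions higher and 1 gained in introns 1 to 4, and 2 lower in introns 5 and 11. ITGB5 intron 4 rose from 0.642, 0.411 and 0.53 to 1.0, 1.18 and 0.838 (0.94 ± 0.20, adjusted p = 0.00223), and intron 11 fell from 1.95, 2.2 and 1.83 to 1.24, 1.36 and 1.24 (-0.64 ± 0.13, adjusted p = 0.00151). ITGB6, of epithelia, had 1 region higher and 1 gained, ITGB8 had 1 gained at 0.379, 0.333 and 0.368, and ITGB4, the hemidesmosome chain, had 2 gained and 1 lower.

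The 5 genes of leukocyte integrin alpha chains had only 17 regions. Of these 4 were more open (23.5%, against 10.1% of all regions) and 0 less open (against 7.85%). ITGAD and ITGAM had 1 more open region each and ITGAL had 2, and ITGAX and ITGAE had no called change. None of the 5 leukocyte markers had a region at its 5′ end in all 6 libraries, while CD14 had one in 2 vector and 3 MyoD-deleted libraries. ITGAD intron 7 rose from 0.333, 0.304 and 0.227 to 0.776, 0.727 and 0.588 (change 1.28 ± 0.22, adjusted p = 0.00033), and ITGAM intron 3 from 0.395, 0.357 and 0.455 to 0.81, 1.2 and 0.662 (change 1.11 ± 0.22, adjusted p = 0.00127). ITGAL had 1 higher and 1 gained region. ITGB2, a beta chain of leukocyte integrins, went the other way: its intron 1 region fell from 1.4, 2.16 and 1.98 to 1.0, 0.682 and 1.22 (change -0.95 ± 0.20, adjusted p = 0.00191). ITGB7 had 1 lower region (change -0.50 ± 0.17, adjusted p = 0.042).

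**Figure D3:**
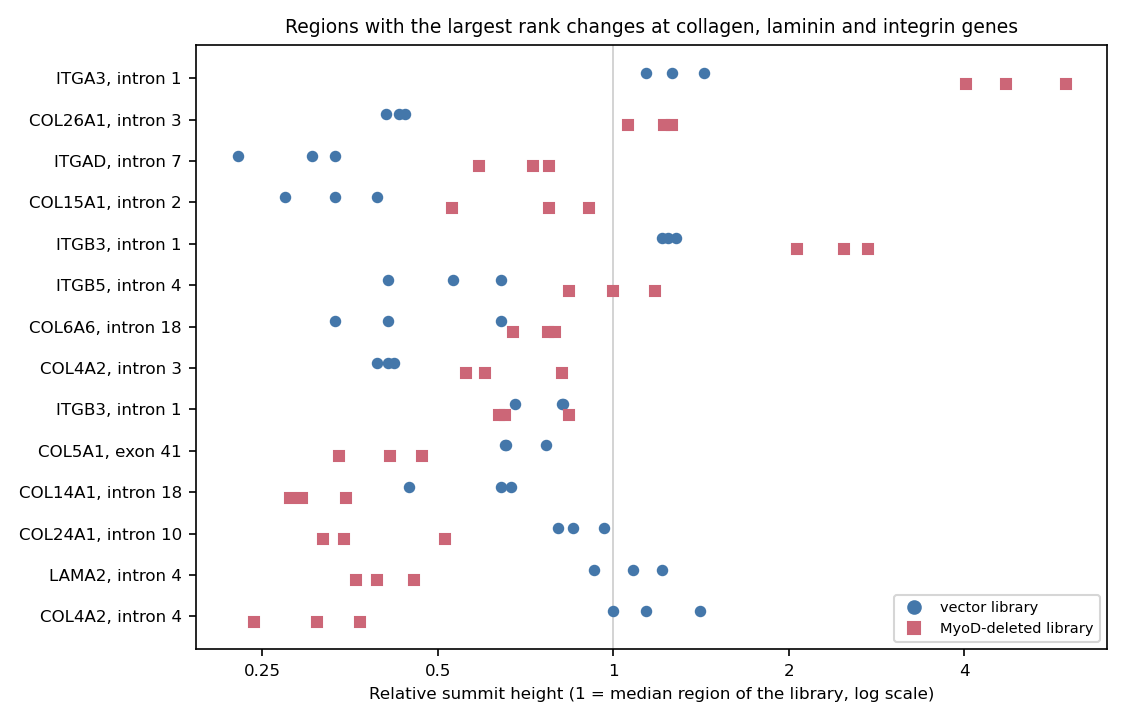
Relative summit height (1 is the median shared region of the library, log scale) of the 14 regions with the largest rank changes in each family, in each vector (circle) and MyoD-deleted (square) library. The groups do not overlap in 13 of the 14, with ITGA3 intron 1 the widest rise and COL4A2 intron 4 the widest fall; the lower ITGB3 region of intron 1, chosen by its rank, overlaps in height.

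Few changes were detected at the 5′ ends of the genes. At 42 of the 82 genes a region lay no more than 1 kb from the 5′ end, and 34 of these were called in all 6 libraries. None of the 42 was gained or lost, and none of the 34 was called by the rank test (limma). By height 2 were higher, those of COL12A1 and COL5A1, and 0 lower. Height changes over the 34 ran from -0.40 to 0.45, with a median of 0.02. Over all regions within 1 kb of a coding gene's 5′ end, 3.46% were higher and 2.70% lower, so called changes at 5′ ends were few across the genome as well. At LAMC1, LAMB1, ITGA1, ITGA6, ITGA4, ITGA9, ITGA11 and ITGB5 the change at the 5′ end lay between -0.25 and 0.16 and did not pass the test. The other 148 of the 150 changed regions lay beyond 1 kb.

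The median height over a gene's regions gave a value per library. Of 75 genes with a shared region, 20 had 3 MyoD-deleted libraries above all vector libraries (26.7%, against 19.4% of all genes) and 10 below (13.3%, against 13.1%). The exact two-sided permutation test cannot go below p = 0.1 with 3 against 3 libraries, and it gave 0.1 for each of the 30. Integrin genes made up 10 of the 20, and 1 of the 10 that were lower was an integrin gene, ITGB2. For laminins the split was 2 against 4, and for collagens 8 against 5. The lower genes depended on the centring. Without it, 29 genes were higher (against 41.2% of all genes) and 3 were lower (against 4.96%), namely COL23A1, COL19A1 and COL18A1. The 4 lower laminin genes and ITGB2 were then no longer separated, nor were COL24A1 and COL4A2, while all 20 higher genes were. Leaving out the centring raises every change alike, so it does not test the higher genes. The ITGA3 median rose from 0.58 ± 0.12 to 1.18 ± 0.05 on the log2 scale (SD, n = 3 libraries each). For ITGA5 it was -0.95 ± 0.38 against -0.15 ± 0.21. COL23A1 fell from -0.21 ± 0.23 to -1.38 ± 0.18 and COL18A1 from 0.67 ± 0.27 to -0.02 ± 0.08. COL19A1, over 23 regions, stood at 0.27 ± 0.19 and -0.29 ± 0.15, and LAMA3, over 10, at -0.98 ± 0.05 and -0.58 ± 0.09. Several of these genes rest on a single shared region, among them ITGAD, ITGAM, ITGAL, LAMB4, LAMB2, COL1A2 and COL3A1.

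**Figure D4:**
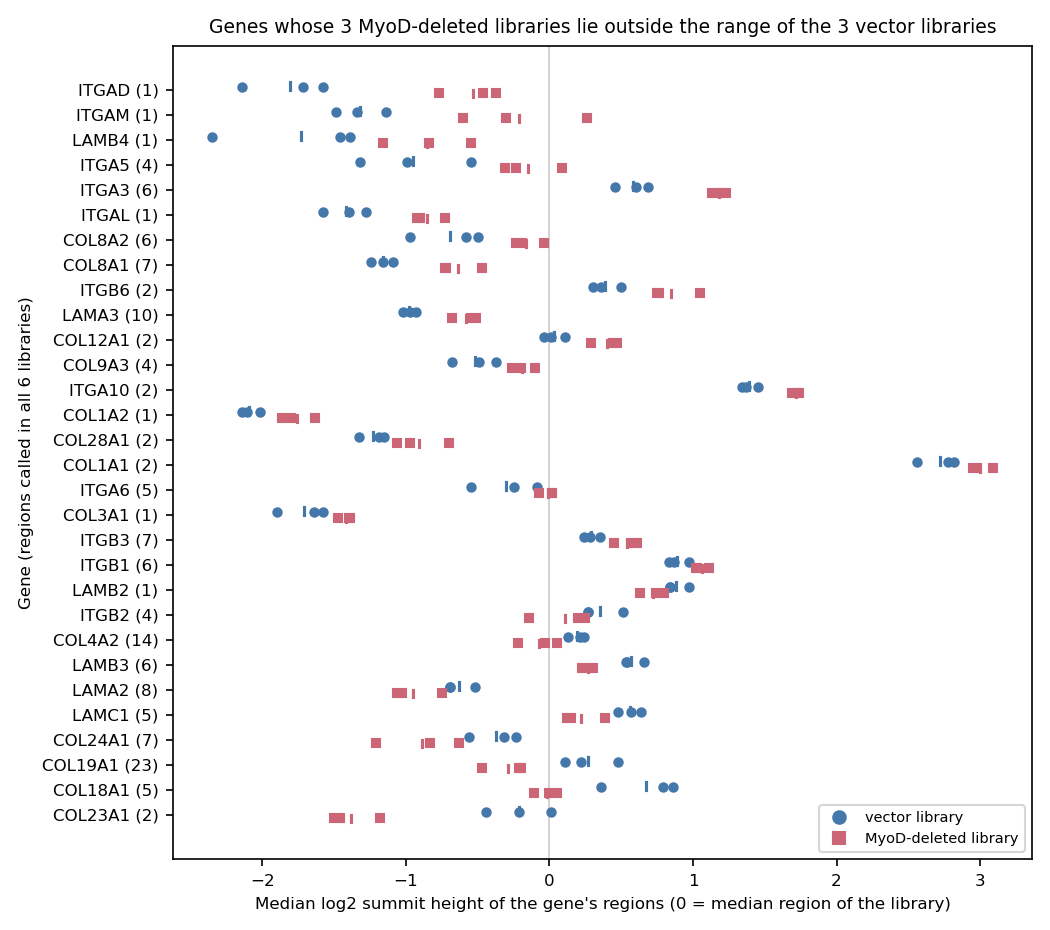
Median log2 summit height of the regions of each gene in each library (0 is the median shared region), for the 30 genes whose groups do not overlap; circles are vector and squares MyoD-deleted libraries, short lines are group means, and the number of shared regions is in brackets. The 20 genes at the top have higher medians in MyoD-deleted cells and the 10 at the bottom lower ones.

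Most member regions lay deep in long genes. Introns held 542 of the 687 (78.9%) and intron 1 alone 97, while 25 lay in coding exons and 22 in untranslated exons. A large share, 326 (47.5%), lay over 50 kb downstream of the 5′ end. The member gene was the nearest 5′ end for 460 regions (67.0%), and for 114 of the 150 changed regions. A gene held a median of 6 regions. Regions that rose in height did so by a median of 0.72, from 0.30 to 1.93, and those that fell by a median of -0.73, to -1.95. At the upstream limit of the rule, 15 regions lay 8 to 10 kb before the gene, of which 4 were gained, 0 lost, 3 higher and 1 lower. Just outside, 13 lay 10 to 12 kb before it, with 1 gained, at ITGB1, 0 lost, 0 higher and 0 lower. Over all regions 4.56% were gained and 1.78% lost, and 11.4% of shared regions were higher and 12.8% lower.

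The motifs around the summits were counted by the direction of change. Within 100 bases of the summit, CAGCTG was found in 26 of the 53 regions that fell in height (49.1%, against 57.1% of all regions that fell) and in 2 of the 46 that rose (4.35%, against 15.9%). It was found in 27.8% of all regions called in all 6 libraries. TGACTCA was found in 5 of the 53 (9.43%, against 14.5%) and in 18 of the 46 (39.1%, against 33.0%). GGAATG was found in 12 of the 53 (22.6%, against 16.6%) and 17 of the 46 (37.0%, against 24.3%). CAGGTG was found in 17 of the 53 (32.1%, against 29.9%) and 7 of the 46 (15.2%, against 7.08%). Of the 12 lost regions, 7 held CAGCTG (58.3%, against 54.8% of all lost regions) and 0 held TGACTCA (against 10.0%). Of the 35 gained regions, 12 held GGAATG (34.3%, against 24.5% of all gained regions) and 9 held TGACTCA (25.7%, against 27.4%). Regions called by rank did not show the same shares of E boxes. CAGCTG was in 3 of the 13 members ranked lower (23.1%, against 56.4% of all regions ranked lower), and CAGGTG was in 4 of the 14 ranked higher (28.6%, against 7.96%). Named examples include COL18A1, with CAGCTG in all 3 of its less open regions, and ITGA3, whose 4 more open regions held the AP-1 or TEAD letters while its lower one held both E boxes. A match to these letters is a description and not a binding site. CAGCTG was found in 25.1% of all regions, CAGGTG in 15.9%, TGACTCA in 17.9% and GGAATG in 17.3%.

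**Figure D5:**
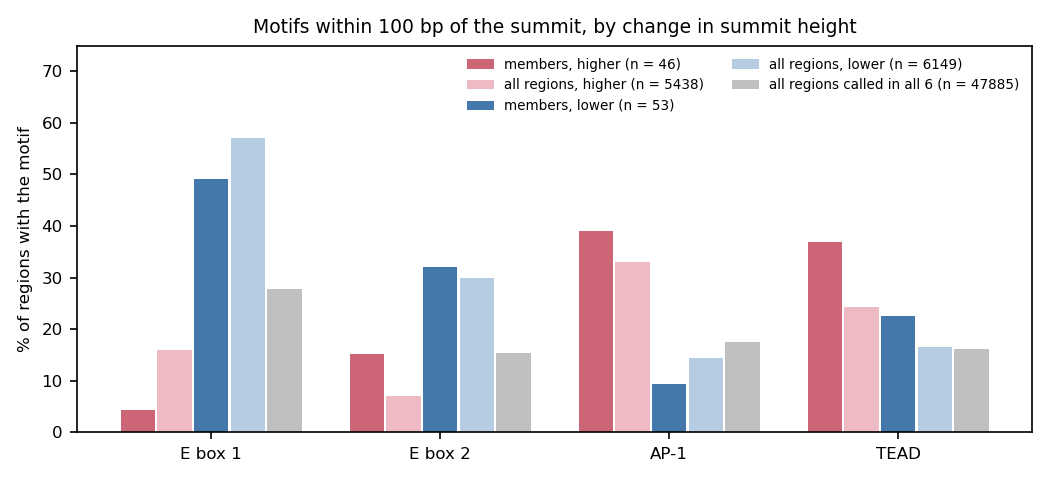
Percentage of regions with each motif within 100 bp of the summit, on either strand, for member regions and all regions whose height was higher or lower and for all regions called in all 6 libraries. E box 1 stands for CAGCTG and E box 2 for the other E box; the first is at 49.1% of the members that fell and 4.35% of those that rose, and the AP-1 letters are at 9.43% and 39.1%.

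Other genes of the matrix and adhesion pathway were read in the same way, against 4.56% gained, 1.78% lost, 11.4% higher and 12.8% lower over all regions. Genes of matrix partners such as perlecan and nidogen had 6 gained and 3 lost of 121 regions, with 11 of 59 higher in height and 12 lower. HSPG2 (perlecan) changed at 5 regions each way, and NID2 (nidogen) had 3 more open and 0 less open. Collagen processing enzymes had 7 gained and 3 lost of 114, and 11 of 67 higher and 8 lower, with P4HA2, a prolyl hydroxylase chain, holding 3 more open and 5 less open. Matrix proteases and their inhibitors had 6 of 26 regions higher and 0 lower, and 4 of the 6 were in MMP2, a gelatinase that degrades collagen IV. Adhesion adaptors and kinases had 11 gained and 4 lost of 232, with 9 of 116 higher and 19 lower. These gained and lost shares, 4.74% and 1.72%, were close to those of all regions, and without centring the heights split the other way, with 26 higher and 11 lower. TLN2, a talin that links integrins to actin, had 6 more open and 3 less open regions, and the tensin TNS1 had 3 and 4. The other matrix receptors of muscle had 8 of 70 higher and 17 lower, among them DMD (dystrophin, 3 higher and 5 lower) and SGCD (0 and 3). At the genes of myogenic markers, 18 of 43 regions were lower (41.9%, against 12.8% of all regions) and 1 was higher, with all 4 of MYOG lower. Without centring 8 were lower and 4 higher, with 2 of the 4 of MYOG lower. The other lists also moved with the centring, to 19 higher and 8 lower at matrix partners, 19 and 5 at processing enzymes, 11 and 0 at proteases and 13 and 12 at muscle receptors.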

How the data were processed

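ATAC-seq libraries of RH30 cells were made by the authors from frozen cells with the Nextera Tn5 transposase and sequenced as read pairs. Reads were aligned to hg38 with Rsubread, proper pairs were kept, and peaks were called with MACS2 (version not given in the sources used here) in each library separately, without pooling. The deposited peak lists give for each peak a score (10 times −log10 of the q-value, truncated), the fold enrichment at the summit over the local background as a ratio, and −log10 p and −log10 q. Whether the excluded regions of ENCODE were removed from these lists is not given in the sources used here. The authors tested read counts with DESeq2, which needs counts not analysed here.

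Peaks were merged with any overlap or contact into regions in Python, and bedtools 2.31.1 gave the same number of regions. Genes were taken from GENCODE 44. The whole-number pileup at each summit was recovered from the deposited fold enrichment and −log10 p, and read totals remain unknown. Measures were compared with limma 3.58.1 in R 4.3.3 over the regions called in all 6 libraries, with Benjamini-Hochberg adjustment over all of them: the normal-score rank of fold enrichment, and the log2 summit height over the library's smallest background, centred on the library's median. For gene medians the permutation test was exact and two-sided. The scripts were tested on simulated data. Motifs were searched within 100 bp of the highest summit on both strands, and sequences were read from the hg38 genome. Python 3.11.15, pandas 2.3.3, numpy 2.4.6, scipy 1.17.1 and pysam 0.24.0 were used.

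Named regions and genes were, per family, up to 4 regions called by rank in each direction, up to 3 gained and 3 lost regions with the highest ranks, genes with at least 2 changed regions or changes both ways, and a list of main chains, given at their 5′ end. Per pathway list, up to 2 genes in each direction were named. Other regions were named after their values were seen. The members and lists were chosen with earlier results of these data known.

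Alternatives were a −log10 q of at least 5, an equal number of peaks per library, peaks covering at least 50% of a region, ranks of −log10 p, heights without centring, a replicate block, each library left out, and assignment by the gene body alone, by up to 5 kb upstream or by the nearest 5′ end. The same settings applied to each family and to the collagen IV chains, and counts of gene medians without centring, were chosen after seeing the data.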

Additional observations from a re-analysis of the deposited data

How the results depend on the processing

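Shares over all regions under the same setting are in brackets. Libraries with an equal number of peaks gave 21 gained (3.26%) and 28 lost (3.71%) member regions. Peaks covering at least 50% of a region gave 19 lost (2.65%), 8 ranked higher (2.98%) and 8 ranked lower (3.14%). Ranks of −log10 p gave 38 higher (9.03%) and 46 lower (10.9%), and heights without centring 87 higher (24.7%) and 35 lower (8.03%). With a replicate block, 5 regions ranked lower (3.15%), 10 ranked higher (2.84%), and 43 and 51 were higher and lower in height (10.4% and 12.1%). Same-numbered libraries did not deviate together (correlations of -0.04, -0.203 and 0.092), so the numbers do not pair them. With one library left out, gained regions ranged from 36 to 53 (5.08% to 8.38%) and lost from 14 to 18 (2.14% to 2.77%). Regions ranked higher ranged from 4 to 18 (1.27% to 5.06%) and ranked lower from 4 to 12 (1.65% to 3.93%). Those higher in height ranged from 25 to 54 (7.33% to 13.4%) and lower in height from 40 to 59 (8.96% to 14.1%). Without centring the change of the ITGB3 region at 9.2 kb was 0.06 and that of the LAMB2 median 0.03. With −log10 q of at least 5 the ITGA6 median change was -0.16. With one library left out, the LAMC1 median change ranged from -0.42 to 0.06 (without vector replicate 2) and that of COL28A1 from -0.08 (without MyoD-deleted replicate 3) to 0.35. The cause was not tested. Of the other alternatives for gene medians, 225 moved by less than the spread between libraries and 36 by more. Named regions kept their side of the threshold by height in 138 alternatives and lost it in 7, and by rank in 120 and 26. With assignment to the nearest 5′ end, 45 of 789 regions were gained (4.56%) and 13 lost (1.78%). Of 353 shared regions, 66 and 60 were then higher and lower in height (11.4% and 12.8%). Read depth is unknown, so a missing peak is no measure of closed chromatin.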
